A study of Homo sapiens with 12 samples.

Results

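The 10 genes described here encode alpha- and beta-tubulin: the alpha-tubulins TUBA1A, TUBA1B and TUBA1C, and the beta-tubulins TUBB, TUBB2A, TUBB2B, TUBB3, TUBB4A, TUBB4B and TUBB6. They were chosen by symbol, as the family whose members stood high in the cytoplasm-to-nucleus comparison of these same libraries, from 67049 gene IDs. All 10 had at least 1 count and 9 passed the filter on low counts; the exception was TUBB. The RNA came from HEK293T cells, a line of human embryonic kidney origin that carries the SV40 large T antigen, taken 48 h after transfection with Lipofectamine 2000. The plasmid was pIRES2-SF3B1 carrying SF3B1 as wild type (WT) or with the K700E change. SF3B1 is a splicing factor of the U2 snRNP, and K700E recurs in blood cancers. Nuclear and cytoplasmic RNA were sequenced separately, which gave 4 groups of 3 libraries: WT nucleus, WT cytoplasm, K700E nucleus and K700E cytoplasm. Every group thus received an SF3B1 plasmid, expression was transient, and all cells were of a single line. The title of the series names export of mRNA from the nucleus.

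Tubulin dimers of an alpha and a beta subunit are the building blocks of microtubules, and every dividing cell makes several isotypes from separate genes. The amount of tubulin mRNA is set partly in the cytoplasm: when free dimers are in excess, TTC5 binds the first residues of tubulin as it leaves the ribosome and recruits SCAPER and the CCR4-NOT deadenylase, which degrades the mRNA. Newly made tubulin is folded by prefoldin, the chaperonin TRiC and the tubulin cofactors before it can form dimers.

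The coding sequences of these genes are close copies of each other, which bears on how reads can be told apart. The first 60 coding bases, which include the codons for the residues that TTC5 recognises, are shown for the 7 beta-tubulins, read from the main transcript of each gene in GENCODE release 29 on GRCh38. The lines are compared with TUBB4B (chr9:137241361-137241723, plus strand), and capitals mark the bases that differ from it. Each coordinate range spans an intron, which is spliced out of the sequence.
TUBB4B: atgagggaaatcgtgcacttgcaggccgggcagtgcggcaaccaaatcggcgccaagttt
TUBB: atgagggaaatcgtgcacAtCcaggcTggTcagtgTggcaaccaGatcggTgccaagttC
TUBB2A: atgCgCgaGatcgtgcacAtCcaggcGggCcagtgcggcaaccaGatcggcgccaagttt
TUBB2B: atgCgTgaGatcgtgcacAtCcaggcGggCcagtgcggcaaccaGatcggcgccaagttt
TUBB3: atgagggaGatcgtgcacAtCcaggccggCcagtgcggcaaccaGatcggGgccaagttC
TUBB4A: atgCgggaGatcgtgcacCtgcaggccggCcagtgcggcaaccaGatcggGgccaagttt
TUBB6: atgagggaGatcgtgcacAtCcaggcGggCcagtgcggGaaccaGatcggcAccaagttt
The beta-tubulins differed from TUBB4B at 6 (TUBB4A) to 8 positions in this stretch.

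Over the whole coding sequence TUBA1A and TUBA1B were 97.2% identical, TUBA1B and TUBA1C 96.8%, and TUBA1A and TUBA1C 95.9%. TUBB2A and TUBB2B were 98.1% identical, whereas TUBB was 80.9% to 84.7% identical to the other beta-tubulins. All 10 main transcripts had 4 exons, with 858 intron bases in TUBB4B and 16497 in TUBB6 at the extremes. Windows of 100 bases that occur unchanged in a transcript of another gene made up 56.4% of the TUBB2A main transcript, 46.2% of TUBB2B, 37.2% of TUBA1B, 18.3% of TUBA1A and 11.5% of TUBA1C. The same share was 2.86% in TUBB4B and 0% in TUBB4A and TUBB6. How the authors assigned reads that match more than 1 gene is not given in the sources used here, so levels within the TUBA1 trio and within the TUBB2 pair are uncertain.

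Total counts ran from 9086743 to 11200562 in the nuclear libraries and from 13422598 to 18116929 in the cytoplasmic ones. Nothing in the labels ties the 3 libraries of a group to separate cultures. The p-values therefore reflect the spread among these libraries alone, and that spread may be technical. Levels are given as CPM, the count as a share of the library total scaled by trimmed mean of M-values. SF3B1, the transfected gene, stood at 1024 to 2479 CPM in nuclei and 6917 to 10070 CPM in cytoplasm, and plasmid and endogenous mRNA cannot be told apart in gene counts. The fractions were checked with 4 nuclear-retained RNAs, MALAT1, NEAT1, KCNQ1OT1 and FTX, which summed to 2692 to 9838 CPM in nuclei and 83.7 to 145 CPM in cytoplasm, and with the 13 mitochondrially encoded mRNAs, at 907 to 1245 CPM in nuclei and 4473 to 18780 CPM in cytoplasm. Of 5 marker genes of HEK293T cells (PAX2, LIN28B, NEFL, NEFM and INA) all 5 were measured in every library, summing to 82.9 to 631 CPM. The 7 markers of other cell types summed to 17.1 to 138 CPM, with COL1A1 as the largest part of the sum. Over all 12 libraries CD3E had 0 counts, PTPRC 10, DCN 17, LUM 43, CD14 329, ALB 1150 and COL1A1 4715. In WT nuclei ALB, at 14.5 CPM, stood above the HEK293T marker PAX2, at 7.19 CPM. In WT nuclear library 2 the other-cell sum (138 CPM) exceeded the HEK293T sum (82.9 CPM), so the markers did not separate there. In each of the other libraries the HEK293T sum was the higher.

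Alpha- and beta-tubulin mRNAs stood much higher in the cytoplasmic libraries than in the nuclear ones, with 2 exceptions in degree and direction: TUBB6 was only slightly higher and TUBB3 was lower. Summed over the family, tubulin mRNA made up 1712 ± 477 CPM (SD, n = 3) in WT cytoplasm and 189 ± 45.9 CPM in WT nuclei. With K700E the sums were 1413 ± 482 and 132 ± 32.2 CPM. In both constructs every cytoplasmic library lay above every nuclear one. In bulk RNA such a difference is one of share, since fewer molecules per cell and a different amount of total RNA in the fraction cannot be told apart. This comparison chose the family, so its values are a description and carry no test.

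**Figure D1:**
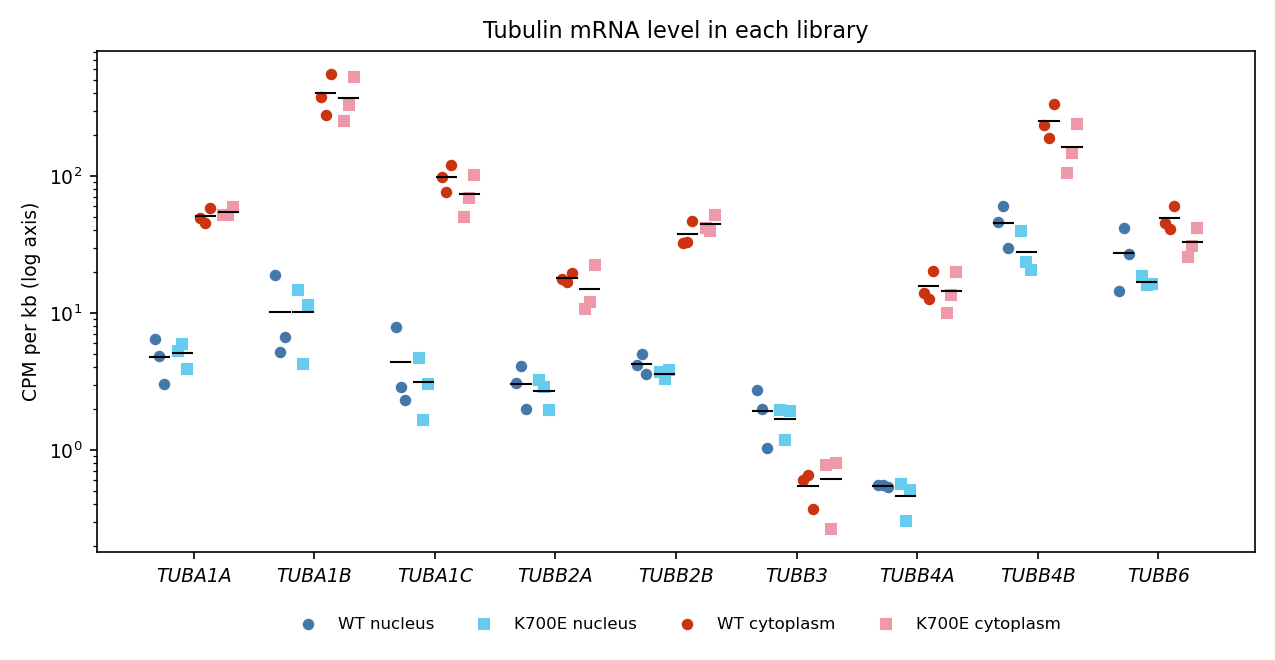
Level of 9 tubulin mRNAs in each of 12 libraries, in CPM per kb of main transcript length on a log axis. Points are libraries, black bars group means, and TUBB with 41 counts in all is left out. Cytoplasmic libraries lie above nuclear ones for every gene except TUBB6, where the WT groups overlap, and TUBB3, where they lie below.

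Among the alpha-tubulins, TUBA1B (chromosome 12, 49127782 to 49131397), the main alpha isotype of most cell lines, was the most abundant in the cytoplasm. Its 3 WT cytoplasmic libraries held 613, 456 and 909.9 CPM, and its WT nuclear libraries 30.5, 8.42 and 10.8 CPM. The K700E cytoplasmic libraries held 409, 539 and 857 CPM, against 23.8, 6.91 and 18.6 CPM in the K700E nuclei. The lowest cytoplasmic library thus stood far above the highest nuclear one, and library 3 was the highest in both cytoplasmic groups, library 1 in both nuclear ones. The log2 fold change of cytoplasm over nucleus was 5.31 ± 0.54 (SE, 39.6-fold) with WT and 5.19 ± 0.54 with K700E, which ranked 3 and 4 among 13895 protein-coding genes tested. Without WT nuclear library 1 the WT value rose to 6.16, so a single library moved it by more than 1.5 times.

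TUBA1C (chromosome 12, 49188736 to 49274603), another ubiquitous alpha isotype, behaved much like TUBA1B from library to library. Its level was 294.5, 228 and 361 CPM in WT cytoplasm and 23.6, 8.68 and 6.91 CPM in WT nuclei. With K700E it was 151, 206 and 306 CPM in cytoplasm and 14.1, 4.92 and 9.16 CPM in nuclei. Again library 1 was the highest of each nuclear group and library 3 of each cytoplasmic group, and the fractions did not overlap. The log2 fold change was 4.49 ± 0.47 with WT, or 5.29 without WT nuclear library 1, and 4.55 ± 0.47 with K700E.

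TUBA1A (chromosome 12, 49184796 to 49189324), the alpha isotype that dominates in developing neurons, was steadier. It stood at 94.2, 86.9 and 112 CPM in WT cytoplasm and 12.4, 9.21 and 5.82 CPM in WT nuclei. With K700E the levels were 98.7, 98.9 and 114 CPM in cytoplasm and 10.1, 11.4 and 7.501 CPM in nuclei. The coefficient of variation within the cytoplasmic groups was 13.3% and 8.61%, against 34.9% and 38.3% for TUBA1B. The log2 fold change was 3.42 ± 0.28 with WT and 3.42 ± 0.28 with K700E.

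Nuclear TUBA1B followed the same order over the 6 nuclear libraries as SF3B1, but not all members shared its course. The Pearson correlation of log2 CPM with TUBA1B over these libraries was 0.908 for TUBA1C, 0.731 for TUBB3, 0.605 for TUBB4A and 0.241 for TUBA1A. It was 0.143 for TUBB4B, 0.072 for TUBB2B, -0.071 for TUBB2A and -0.538 for TUBB6. Nuclear SF3B1 stood at 2479, 1070 and 1180 CPM with WT and at 1918, 1024 and 1857 CPM with K700E. The 4 nuclear-retained RNAs summed to 3108, 6321 and 6426 CPM in the WT nuclei and 2692, 9838 and 6398 CPM in the K700E nuclei, lowest in library 1 of each construct. The part of SF3B1 or of the retained RNAs in the nuclear tubulin levels was not tested. An antisense gene, TUBA1B-AS1, overlaps 72.7% of the TUBA1B main transcript and was counted at 35 to 87 reads per nuclear library and 5 to 23 per cytoplasmic one. The sources used here give no strand setting for the counting, and sense and antisense reads cannot be told apart.

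Among the beta-tubulins, TUBB4B (chromosome 9, 137241213 to 137243707), a ubiquitous isotype with the shortest introns of the family, had the highest mean CPM in both fractions. The place of TUBB in this order is uncertain, since its counts have a limit given below. WT cytoplasm held 384, 309.9 and 544.5 CPM and WT nuclei 75.9, 99.3 and 48.8 CPM. K700E cytoplasm held 171, 240.0 and 391 CPM and K700E nuclei 64.7, 38.7 and 33.7 CPM. The fractions did not overlap in either construct, and the log2 fold change was 2.47 ± 0.35 with WT and 2.55 ± 0.35 with K700E. Per kb of main transcript length its nuclear mean with WT was 45.6 ± 15.5 CPM, against 10.2 ± 7.46 CPM for TUBA1B, while its cytoplasmic mean of 252 ± 73.3 CPM was the lower of the pair.

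TUBB4A (chromosome 19, 6494319 to 6502848), best known as a brain isotype, was at the other extreme. Its nuclear level per kb was the lowest among the 9 tested members. In CPM it stood at 1.41, 1.40 and 1.36 CPM with WT and 1.44, 0.7775 and 1.31 CPM with K700E. The cytoplasmic libraries held 35.6, 32.1 and 51.8 CPM with WT and 25.5, 34.6 and 50.5 CPM with K700E. The fractions lay far apart, with a log2 fold change of 4.83 ± 0.35 with WT and 4.96 ± 0.36 with K700E, rank 6 of the protein-coding genes in both. The nuclear values rest on 49 counts in 3 WT libraries (exact 95% Poisson interval 36.3 to 64.8) and 42 in 3 K700E libraries (30.3 to 56.8). Such intervals describe counting error and nothing else, because without molecular identifiers 2 reads may stem from 1 molecule.

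TUBB2A (chromosome 6, 3153669 to 3157526) and TUBB2B (chromosome 6, 3224261 to 3231730) are a recent duplicate pair on the same arm. TUBB2A had 28.1, 27.0 and 31.3 CPM in WT cytoplasm and 4.93, 6.49 and 3.18 CPM in WT nuclei. With K700E it had 17.0, 19.1 and 35.5 CPM in cytoplasm and 5.19, 4.58 and 3.14 CPM in nuclei. The log2 fold change was 2.56 ± 0.34 with WT and 2.47 ± 0.34 with K700E, and the spread between K700E cytoplasmic libraries was wide, with library 3 far above the other two. TUBB2B had 65.2, 67.0 and 95.4 CPM in WT cytoplasm and 8.46, 10.1 and 7.185 CPM in WT nuclei. With K700E it had 83.6, 80.3 and 104 CPM in cytoplasm and 7.43, 6.65 and 7.675 CPM in nuclei. Its log2 fold change was 3.14 ± 0.24 with WT and 3.62 ± 0.25 with K700E, and no fraction overlapped the other for either gene.

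TUBB6 (chromosome 18, 12307669 to 12344320), a divergent isotype, had the smallest cytoplasmic excess of the 8 members with a positive one. WT nuclei held 29.75, 85.7 and 55.3 CPM and WT cytoplasm 93.6, 84.7 and 125 CPM. K700E nuclei held 38.4, 33.0 and 33.4 CPM and K700E cytoplasm 53.15, 63.2 and 86.5 CPM. With WT the highest nuclear library stood above the lowest cytoplasmic one, whereas with K700E the fractions did not overlap. The log2 fold change was 0.83 ± 0.31 with WT and 0.95 ± 0.31 with K700E, and it shrank to 0.29 and 0.53 with library size alone as the scaling. The WT value was 0.58 without nuclear library 1 and 0.67 without cytoplasmic library 3, and the K700E value was 0.78 without cytoplasmic library 3.

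TUBB3 (chromosome 16, 89921392 to 89938761), the neuronal beta isotype, was lower in the cytoplasm. WT nuclei held 4.85, 3.51 and 1.82 CPM and WT cytoplasm 1.07, 1.16 and 0.654 CPM. K700E nuclei held 3.435, 2.07 and 3.40 CPM and K700E cytoplasm 1.37, 0.464 and 1.42 CPM. The fractions did not overlap, and the log2 fold change was -1.82 ± 0.54 with WT and -1.44 ± 0.53 with K700E. The K700E value was -1.28 without nuclear library 1, -1.30 without nuclear library 3 and -1.07 without cytoplasmic library 2. These values rest on 36 cytoplasmic counts with WT (exact 95% Poisson interval 25.2 to 49.8) and 42 with K700E (30.3 to 56.8). A same-strand protein-coding gene, ENSG00000198211, covers 89.5% of the TUBB3 main transcript in its exons, 89.0% of the 100-base windows of TUBB3 also occur in its transcripts, and it was counted at 0 to 7 reads per library. How reads in this overlap were assigned is not given in the sources used here, so the level of TUBB3 mRNA is uncertain.

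**Figure D2:**
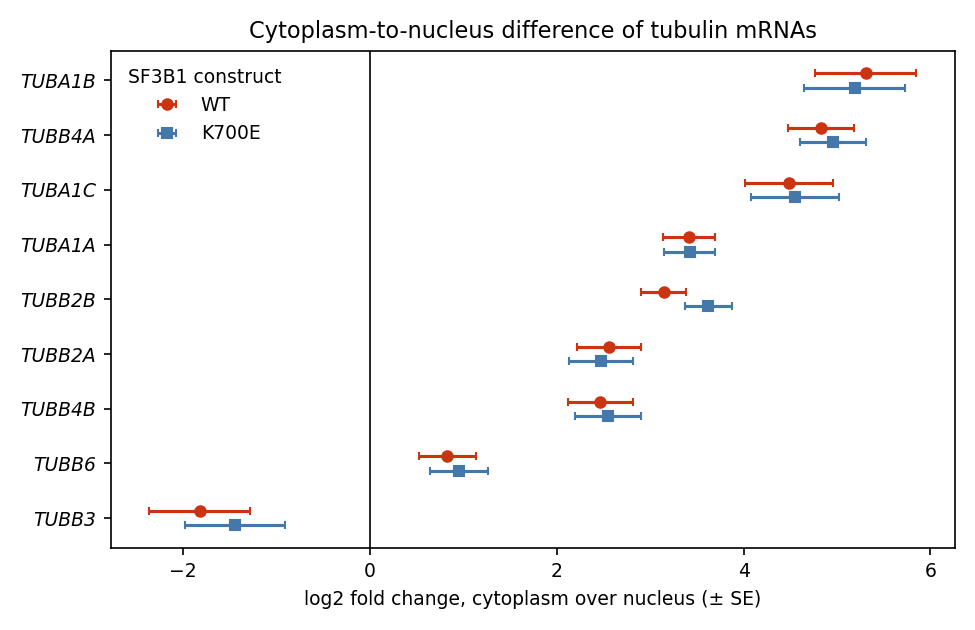
Log2 fold change of cytoplasm over nucleus (± SE) for 9 tubulin mRNAs with WT (circles) and K700E (squares), ordered by the WT value. The order runs from TUBA1B at 5.31 to TUBB6 at 0.83 and TUBB3 at -1.82, and the bars of WT and K700E overlap for each of the 9 genes.

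Of the 9 members fitted, 8 had a log2 fold change above 0 and 1 below 0 with either construct, which the choice of the family fixed in part and from which nothing is read. Over all 20394 genes 67.1% differed between fractions with WT at an edgeR adjusted p under 0.05 (27.1% higher and 40.0% lower in the cytoplasm) and 65.9% with K700E (28.1% and 37.9%). The median log2 fold change of the 9 was 3.14 with WT and 3.42 with K700E, beside -0.40 and -0.30 over all genes tested and 0.13 and 0.19 over protein-coding genes. In the ranking by cytoplasmic excess with WT, TUBA1B, TUBB4A and TUBA1C stood at 3, 6 and 8, the gene at rank 20 was CDA at 4.16 and the next was UBE2L6 at 4.15, and TUBA1A followed at rank 112, TUBB2B at 207, TUBB2A at 626, TUBB4B at 742, TUBB6 at 4490 and TUBB3 at 11839. The paralogs thus spread from near the top of the ranking to its lower part.

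TUBB (ENSG00000196230.14, chromosome 6, 30720201 to 30725426), usually described as the main beta isotype of dividing cells, was counted at 0, 0 and 0 reads in WT nuclei and 5, 16 and 6 in WT cytoplasm. With K700E the counts were 0, 1 and 0 in nuclei and 3, 4 and 6 in cytoplasm. With the 0 of the WT nuclei set to a floor of 3 counts for the whole group, the ratio of cytoplasm to nucleus was 8.20 with WT. This value takes the 27 cytoplasmic counts as exact, 16 of them from library 2, and has no interval for their counting error. With K700E the ratio was 11.96 with an exact 95% counting interval of 1.80 to 508. With 41 counts in all it was not tested.

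The low count is shared by the genes around TUBB. Of the 19 other protein-coding genes within 250 kb, 18 (94.7%) had fewer than 100 counts over 12 libraries, against 32.2% of 19890 protein-coding genes. The lipid-raft gene FLOT1 had 15 counts and the mitochondrial ribosomal protein gene MRPS18B had 6. The share of genes under 100 counts was 85.1% within 1 Mb of TUBB. Exceptions in that span included HLA-C (10148 counts), HLA-B (9467) and PRRC2A (6586). On the lower-coordinate side it was 100% from 1 to 2 Mb away and 49.5% from 2 to 5 Mb away, and on the other side it was 78.7% from 1 to 2 Mb, 73.7% from 2 to 3 Mb and 19.2% from 3 to 5 Mb. The name table of GENCODE release 29 lists 32 transcripts named TUBB, of which 4 belong to the gene on the primary chromosome and 28 lie outside the primary assembly. Of the 19 neighbours 18 also have named transcripts outside it, and of the other 9 members 0 do. The remaining neighbour, VARS2, has all 12 of its named transcripts in the primary assembly and had 1 count. The files hold 8653 gene IDs that are not in the primary annotation, with 0.266% of all counts, and the tables used here pair none of them with a symbol. The count of TUBB on the primary chromosome therefore need not be the level of its mRNA in these cells. The cause of the low counts was not tested.

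**Figure D3:**
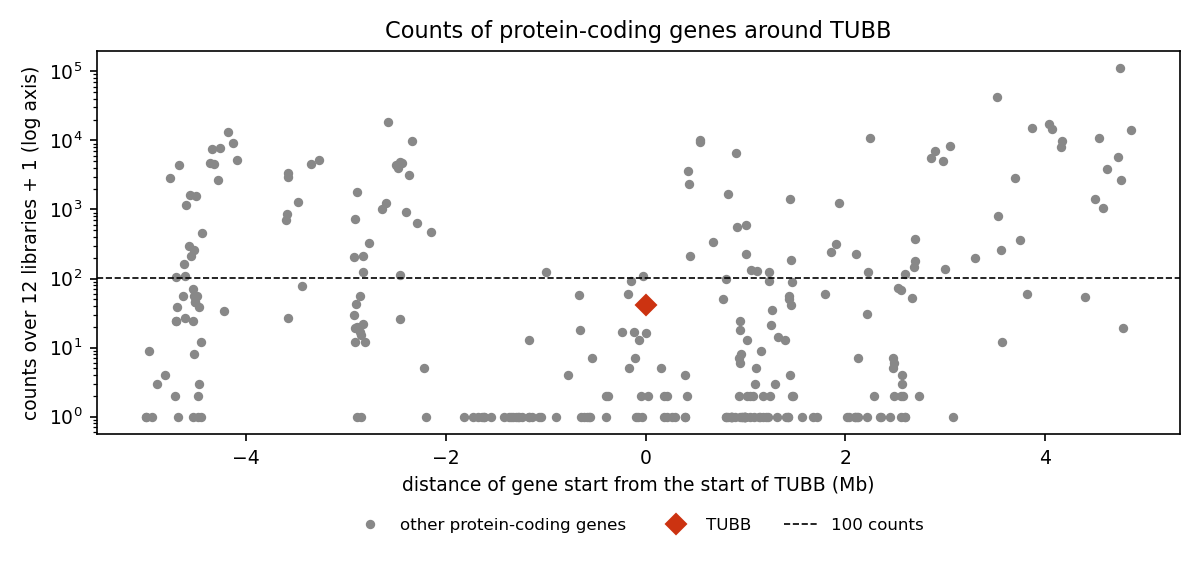
Counts over all 12 libraries plus 1 (log axis) of protein-coding genes against the distance of their start from that of TUBB, in Mb; the dashed line marks 100 counts and the diamond is TUBB with 41 counts. Most genes from about 2 Mb before to 3 Mb after TUBB lie under the line, and most beyond 3 Mb after it lie above.

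Pseudogenes of tubulin genes also drew counts. Of 51 pseudogenes with a tubulin name, 4 passed the filter. TUBBP1, a processed copy that holds 5.1% of the 100-base windows of TUBB, stood at 33.2 ± 15.6 CPM in WT cytoplasm and 1.87 ± 0.76 CPM in WT nuclei (log2 fold change 4.13 ± 0.44, edgeR adjusted p = 8.03e-07). With K700E its log2 fold change was 4.35 ± 0.45. TUBA5P was higher in the cytoplasm too (0.82 ± 0.33), while TUBBP5 (-1.15 ± 0.30) and TUBB8P7 (-2.06 ± 0.87) were lower. Whether the reads of TUBBP1 came from that copy or from TUBB cannot be told apart in these counts.

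Levels of different genes were compared per kb of the length of the main transcript of each gene, though the counts are per gene. In WT cytoplasm TUBA1B led with 406 ± 142 CPM per kb, followed by TUBB4B with 252 ± 73.3, TUBA1C with 98.1 ± 22.2, TUBA1A with 51.1 ± 6.80, TUBB6 with 48.9 ± 10.1, TUBB2B with 37.6 ± 8.37, TUBB2A with 18.1 ± 1.41, TUBB4A with 15.6 ± 4.12, TUBB3 with 0.543 ± 0.153 and TUBB with 0.270 ± 0.197. Neighbours in this order whose libraries overlapped were TUBA1B and TUBB4B, TUBA1A, TUBB6 and TUBB2B, TUBB2A and TUBB4A, and TUBB3 and TUBB. In WT nuclei the order was TUBB4B with 45.6 ± 15.5 CPM per kb, TUBB6 with 27.6 ± 13.6, TUBA1B with 10.2 ± 7.46, TUBA1A with 4.77 ± 1.71, TUBA1C with 4.35 ± 3.05, TUBB2B with 4.25 ± 0.72, TUBB2A with 3.05 ± 1.04, TUBB3 with 1.92 ± 0.86 and TUBB4A with 0.546 ± 0.010. All neighbours down to TUBB3 overlapped there, and TUBB4A lay below TUBB3 in all libraries.

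The make-up of the tubulin mRNA pool therefore differed between fractions. TUBA1B made up 72.5% ± 3.03 (SD, n = 3) of the alpha-tubulin CPM per kb in WT cytoplasm and 50.8% ± 9.21 in WT nuclei. With K700E it made up 73.7% ± 2.69 and 52.5% ± 14.4. TUBA1A made up 9.54% ± 1.69 in WT cytoplasm and 27.4% ± 9.08 in WT nuclei. Among the beta-tubulins TUBB6 fell from 32.9% ± 11.4 of the nuclear pool to 13.2% ± 0.70 of the cytoplasmic pool with WT, and from 32.5% ± 4.38 to 12.4% ± 1.11 with K700E, while TUBB4A went from 0.699% ± 0.1895 to 4.18% ± 0.12 with WT. The beta shares hold TUBB only as counted on the primary chromosome, so the true beta pool may differ. These shares restate the fraction comparison that chose the genes and carry no test.

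**Figure D4:**
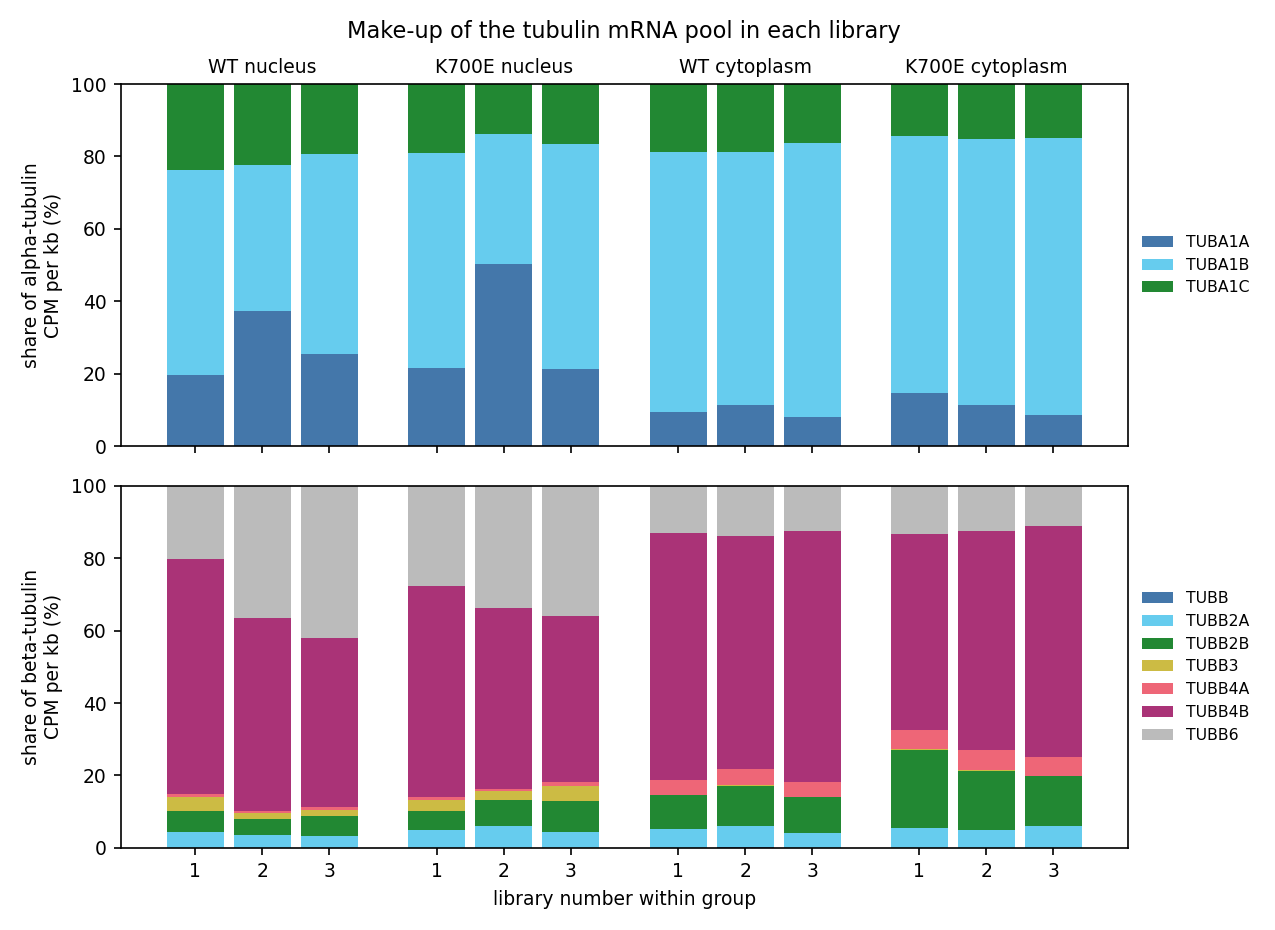
Share of each isotype in the alpha-tubulin (top) and beta-tubulin (bottom) CPM per kb of every library, in percent, by group. TUBA1B takes between 69.8% and 76.5% of the alpha pool in the 6 cytoplasmic libraries. TUBB6 (grey) takes between 20.2% and 42.1% of the beta pool in the 6 nuclear libraries. The beta pool holds TUBB only as counted on the primary chromosome.

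The comparison of K700E with WT, which the choice of genes did not use, asked whether the mutant changed tubulin mRNA in either fraction. None of the 9 members passed in the nucleus, in the cytoplasm or in how the ratio of cytoplasm to nucleus differed between constructs (edgeR, Benjamini-Hochberg adjusted over 20394 genes). Over all genes 0% were called in the nucleus, 0.00490% in the cytoplasm, which was 1 gene, and 0% in the ratio, against 1389, 929 and 672 genes at an unadjusted p under 0.05. The DESeq2 Wald test called 1, 13 and 3 genes and 0 members. The share of called members was thus near that of all genes.

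In the nucleus the largest differences were those of TUBB4B (log2 fold change of K700E over WT -0.71 ± 0.34, n = 3 per group, edgeR adjusted p = 0.66) and TUBB6 (-0.70 ± 0.31, edgeR adjusted p = 0.66). TUBB6 was the only member with an unadjusted p under 0.05, at 0.0355 in that edgeR fit. Of 9 members 8 had a value below 0 and TUBA1A was at 0.08 ± 0.26, with a median of -0.24 beside -0.05 over all genes tested. The nuclear TUBB6 difference went with WT library 2, at 85.7 CPM, and became -0.28 without that library and -1.0 without WT library 1. The 95% intervals of the 9 members reached from -1.42 to 0.97.

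In the cytoplasm TUBB4B was at -0.63 ± 0.33 and TUBB6 at -0.58 ± 0.30, both with an edgeR adjusted p of 1.0. TUBA1C was at -0.41 ± 0.40, TUBB2A at -0.27 ± 0.31, TUBA1B at -0.13 ± 0.45 and TUBB4A at -0.11 ± 0.28. TUBB2B, at 0.24 ± 0.22, TUBB3, at 0.19 ± 0.56, and TUBA1A, at 0.09 ± 0.25, lay above 0. The median was -0.13 beside 0.00 over all genes, and the 95% intervals reached from -1.33 to 1.36. In the cytoplasm library 3 was the highest for 8 of 9 members with WT and for 9 of 9 with K700E, and it was also the deepest library of both groups. The mitochondrial mRNAs summed to 4473 CPM in WT cytoplasmic library 3, against 18780 and 13760 CPM in the others, and to 6108, 7162 and 7134 CPM with K700E, and their part in these levels was not tested.

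The difference between constructs in the ratio of cytoplasm to nucleus was largest for TUBB2B (0.48 ± 0.32, edgeR adjusted p = 0.98) and TUBB3 (0.38 ± 0.75). For TUBA1B it was -0.12 ± 0.65, for TUBB2A -0.09 ± 0.47 and for TUBA1A 0.01 ± 0.36. TUBA1C stood at 0.06 ± 0.58, TUBB4B at 0.08 ± 0.47, TUBB6 at 0.13 ± 0.43 and TUBB4A at 0.13 ± 0.47. The narrowest 95% interval, that of TUBB2B, ran from -0.20 to 1.16, and the intervals of all 9 lay within -1.48 to 1.964. Shifts of the ratio within these intervals could not be told from 0 with 3 libraries per group.

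**Figure D5:**
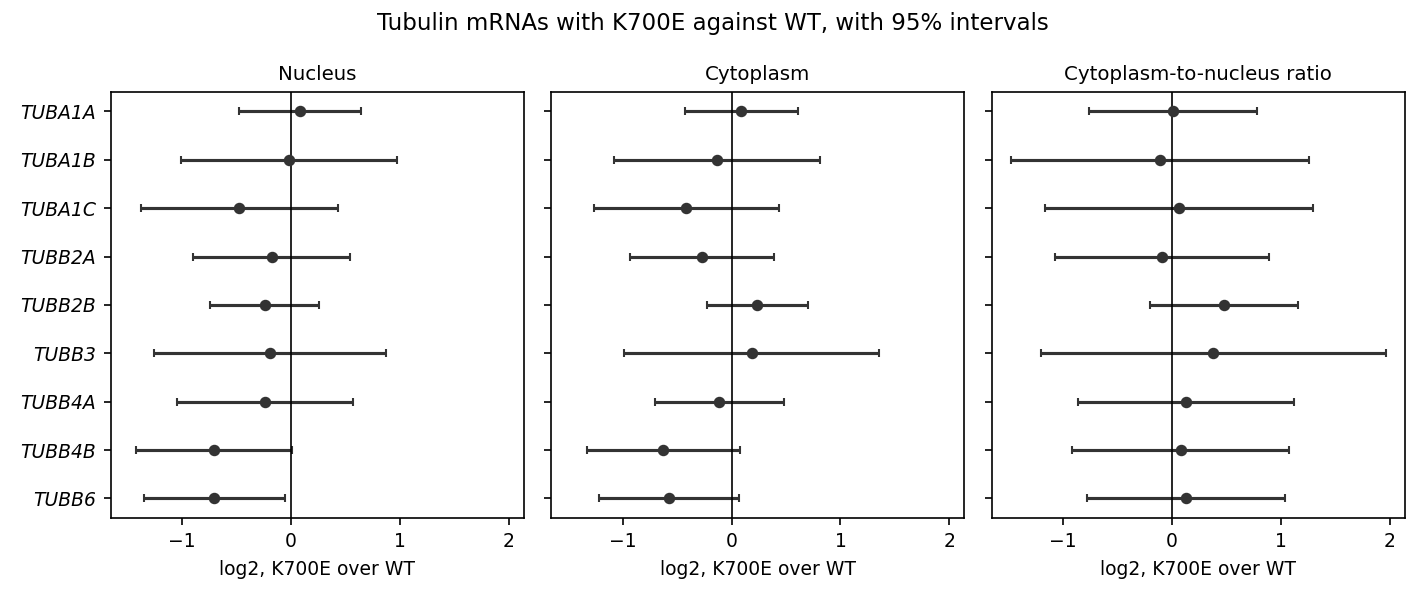
Log2 difference of K700E over WT with its 95% interval for 9 tubulin mRNAs in the nucleus, in the cytoplasm and in the cytoplasm-to-nucleus ratio. All intervals except that of nuclear TUBB6 (-1.35 to -0.06) include 0, and none of the 27 values passed after adjustment.

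Alpha over beta CPM per kb, without the TUBB copies outside the primary assembly, was 1.52, 1.37 and 1.54 in WT cytoplasm and 1.83, 1.86 and 1.83 in K700E cytoplasm. In nuclei it was 0.464, 0.113 and 0.188 with WT and 0.365, 0.2504 and 0.409 with K700E. The cytoplasmic groups did not overlap, and the nuclear groups did. TUBB2B made up 9.37% to 11.3% of the beta pool in WT cytoplasm and 13.8% to 21.4% in K700E cytoplasm, TUBB4A 4.05% to 4.28% and 5.17% to 5.58%, and TUBB4B 64.4% to 69.2% and 54.1% to 63.6%. TUBA1C made up 16.3% to 18.9% of the alpha pool in WT cytoplasm and 14.3% to 15.2% in K700E cytoplasm. The cytoplasmic shares of TUBA1A, TUBA1B, TUBB, TUBB2A, TUBB3 and TUBB6 overlapped between constructs. Shares of a single pool depend on each other, and how often such ratios separate among other genes was not examined. These ratios were singled out after their values were seen and are given with no test. Each part of them was among the untested or uncalled differences above.

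Other tubulins were mostly low or went the other way. Of 12 further tubulin genes 7 were tested, and 2 were higher and 4 lower in WT cytoplasm and likewise with K700E, where 27.1% and 40.0% of all genes were with WT. TUBA4A, an alpha isotype of platelets and muscle, rose by 1.77 ± 0.42 on the log2 scale with WT (6.15 against 1.81 CPM, edgeR adjusted p = 0.00147). The more abundant gamma-tubulin gene TUBG1 was also higher (1.10 ± 0.24, 213.8 against 99.5 CPM, edgeR adjusted p = 0.00086). TUBA8 (-3.31 ± 0.60, 0.875 against 8.89 CPM) and TUBA3D (-3.07 ± 0.86) were lower in the cytoplasm, as was TUBE1 (-1.85 ± 0.27), the epsilon-tubulin of centrioles. TUBA3C and TUBAL3 had 0 counts.

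The gamma-tubulin complex, which nucleates microtubules, had 4 of 9 tested members higher and 1 lower in the cytoplasm with either construct, beside 27.1% higher and 40.0% lower over all genes with WT and 28.1% and 37.9% with K700E. MZT1 (3.36 ± 0.35), MZT2B (1.39 ± 0.51) and TUBGCP3 (1.22 ± 0.24) were higher and TUBGCP6 (-3.02 ± 0.30) lower with WT. With library size alone as the scaling, which shifts the median of all genes by -0.52 with WT and -0.41 with K700E, 2 were higher and 3 lower with WT, beside 18.5% and 50.3% of all genes.

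Among folding factors, more genes were higher than lower in the cytoplasm, against 27.1% higher and 40.0% lower over all genes with WT. Of 13 tubulin cofactor and prefoldin genes tested 9 were higher and 3 lower with either construct (median 2.01 with WT), with the prefoldin subunit VBP1 at 2.89 ± 0.29 and the cofactor TBCC at 2.64 ± 0.26, but PFDN5, another prefoldin subunit, at -2.95 ± 0.44 and TBCE, a cofactor acting on alpha-tubulin, at -4.46 ± 0.91 on 89 counts in all. The prefoldin gene PFDN6, also on chromosome 6, had 3 counts. All 8 TRiC subunits were higher with both constructs (median 1.77 with WT), among them CCT7 (3.14 ± 0.25), CCT5 (2.32 ± 0.19), CCT3 (2.12 ± 0.21) and CCT4 (1.87 ± 0.19), and 7 of 8 with library size alone.

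Of 12 genes of tubulin autoregulation and the CCR4-NOT complex 7 were higher and 2 lower with either construct, where 27.1% and 40.0% of all genes were with WT. TTC5, the reader of nascent tubulin, was higher in WT cytoplasm at 53.4 against 16.9 CPM (1.66 ± 0.27, edgeR adjusted p = 6.41e-05). SCAPER, its adaptor, was lower at 36.9 against 83.97 CPM (-1.19 ± 0.23, edgeR adjusted p = 0.00032). The CCR4-NOT subunits CNOT3 (1.76 ± 0.42), CNOT7 (1.69 ± 0.27) and CNOT1 (1.24 ± 0.22) were higher with WT. The subunit CNOT2 was lower, at -0.60 ± 0.21 with WT and -1.27 ± 0.21 with K700E, and 3 other subunits were not called with either construct. With library size alone 4 of the 12 were higher and 2 lower with WT, where 18.5% and 50.3% of all genes were.

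Tubulin-modifying enzymes had 6 of 15 tested genes higher and 3 lower with WT, beside 27.1% and 40.0% of all genes, and 7 and 3 with K700E, beside 28.1% and 37.9%. The deacetylase HDAC6 was lower (-2.44 ± 0.30), while SVBP (2.33 ± 0.36), the partner of the detyrosinating vasohibins, TPGS2 (2.19 ± 0.21), a subunit of the neuronal polyglutamylase, and the glutamylase TTLL11 (1.84 ± 0.35) were higher. The acetyltransferase gene ATAT1 had 0 counts; it lies within 250 kb of TUBB, and 72 of its 83 named transcripts are outside the primary assembly, so its count has the same limit. With library size alone 5 of the enzymes were higher and 6 lower with WT, beside 18.5% and 50.3% of all genes. Microtubule-binding proteins had 15 of 32 higher and 5 lower with WT and 15 and 7 with K700E, beside the same shares of all genes. With library size alone 8 were higher and 10 lower with WT. MAPRE1 (3.23 ± 0.30), which tracks growing plus ends, and STMN2 (2.55 ± 0.47), of the tubulin-sequestering stathmins, were higher and PRC1 (-2.65 ± 0.40), the crosslinker of the central spindle, lower. DPYSL3 was at 2.50 ± 0.75 with WT and -0.32 with K700E on 136 counts in all, a difference that did not pass (edgeR adjusted p = 0.98).

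The actin system served as another cytoskeleton for comparison, with the same 27.1% higher over all genes. All 10 actin cytoskeleton genes were higher in the cytoplasm with both constructs (median 2.998 with WT and 3.06 with K700E), among them CFL1 (3.99 ± 0.30), ACTB (3.804 ± 0.26), ACTG1 (3.40 ± 0.27) and TMSB10 (3.37 ± 0.24). The tubulin median of 3.14 lay close to that of the actin list. The choice of the family fixed the tubulin median in part, so nothing is read from this. In the K700E comparisons and the ratio, 0 genes of any of these lists passed, against 0% to 0.00490% of all genes.

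The genes whose log2 CPM over the 12 libraries was most like the mean profile of the tubulins, among 11950 candidates, were PLIN3 (Pearson r = 0.997), PPP1CA (0.997), RNPS1 (0.995), AP1B1 (0.995) and KHSRP (0.995). These correlations are a description, since the points share the split between fractions. Their log2 fold changes of cytoplasm over nucleus with WT were 3.295, 2.70, 1.5, 1.78 and 1.97. Each tested member is itself part of the family profile. Among the members, TUBB2A followed that profile most closely (r = 0.990), TUBB6 less so (0.795), and TUBB3 ran against it (-0.753).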

How the data were processed

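Nuclear and cytoplasmic RNA of transfected HEK293T cells was sequenced in 12 libraries, 4 groups of 3. The deposited files hold raw read counts per gene ID. HISAT2 and DESeq are named in the submitters' processing notes without versions; for the counting program, build, annotation, strand setting and RNA selection the answer is: not given in the sources used here. Symbols came from a gene name table (60463 of 67049 IDs), and coordinates, transcripts and sequences from GENCODE release 29 on GRCh38 (58396 IDs).

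Counts were filtered with filterByExpr, which kept genes with at least 15 counts in all that reached a CPM threshold in at least 3 libraries. The threshold was the CPM of 10 counts in a library of median size. Counts were then scaled by trimmed mean of M-values and fitted in edgeR 4.0.16 (R 4.3.3) with a quasi-likelihood test over all 12 libraries. Benjamini-Hochberg adjustment ran over 20394 genes with a threshold of 0.05. DESeq2 1.42.0, other scalings and filters, replicate blocks and left-out libraries were alternatives. Intervals of members use edgeR's total degrees of freedom (16.8). The members, the gene lists and the rule for named genes (all members, up to 4 genes of each list by size of the WT change between fractions, TTC5 and SCAPER, and the 5 genes most like the family) were chosen with earlier results of these data known. FLOT1, MRPS18B, PFDN6, ATAT1, TUBA3C, TUBAL3, TUBG1 and CNOT2 fall outside this rule and were named after their values were seen. A sequence of the alpha-tubulins is not reported here.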

Additional observations from a re-analysis of the deposited data

How the results depend on the processing

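The number of tubulins called was 0 under all 18 alternatives in each K700E comparison. Adjusted p-values of the members (edgeR or DESeq2) ranged from 0.233 to 1.0 in the nucleus, 0.517 to 1.0 in the cytoplasm and 0.622 to 1.0 for the ratio. The K700E values that changed sign under an alternative follow. Nuclear TUBA1B, reported at -0.02, was 0.00 with no filter, 0.00 with a stricter filter and 0.006 with only the libraries compared. For the ratio, TUBA1A was -0.036 with DESeq2, -0.048 with no filter, -0.007 with the replicate block by number and -0.023 with the replicate block by construct and number. That last block gave -0.055 for TUBA1C and -0.012 for TUBB6, and library size alone gave 0.022 for TUBB2A. With 1 library left out, nuclear values ranged from -0.15 to 0.38 for TUBA1A, -0.39 to 0.79 for TUBA1B, -0.90 to 0.29 for TUBA1C, -0.40 to 0.084 for TUBB2A and -0.49 to 0.17 for TUBB3. Cytoplasmic values ranged from -0.48 to 0.17 for TUBA1B, -0.072 to 0.55 for TUBB3 and -0.41 to 0.12 for TUBB4A. Ratio values ranged from -0.29 to 0.24 for TUBA1A, -0.92 to 0.25 for TUBA1B, -0.70 to 0.48 for TUBA1C, -0.50 to 0.13 for TUBB2A, -0.18 to 0.36 for TUBB4A, -0.31 to 0.42 for TUBB4B and -0.30 to 0.42 for TUBB6. The cause was not tested. Libraries with the same number correlated between -0.215 and 0.414 in their deviations from group means. Within a fraction, same-number WT and K700E libraries correlated at 0.414, 0.079 and 0.191 in nuclei and 0.025, 0.124 and 0.283 in cytoplasm. Those of unlike number ran from -0.306 to 0.114 in nuclei and from -0.223 to 0.13 in cytoplasm. Whether the numbers mark shared batches was not tested. The replicate block changed no call of a tubulin in the K700E comparisons, with 0 called. Without a filter 36, 85 and 31 genes were called over all in the nucleus, the cytoplasm and the ratio, and DESeq2 called 1, 13 and 3.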
